A study of Mus musculus with 98 samples.

Results

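The mitochondrial ribosomal proteins were taken as all genes whose symbol starts with Mrpl (large subunit) or Mrps (small subunit) followed by a digit. The arrays held 74 such genes, 47 named for the large and 27 for the small subunit, of 14639 genes and unnamed features in all. They were read by 127 probe sets, with 41 members on 1 probe set and 33 on several. Another 3 probe sets that name such a gene together with a different gene were left out.

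RNA was measured on 98 one-colour Affymetrix mouse arrays, 64 of blood leukocytes and 34 of spleen. Each array belonged to 1 of 3 models, namely a burn, trauma-hemorrhage (TH) or infused LPS, the endotoxin lipopolysaccharide of bacterial walls. Array titles carry a code, x or c, which the labels do not explain, and a letter. Blood titles carry the letter E for the injury or infusion, or A for sham, and spleen titles carry only E. In burn blood there were 4 x arrays of letter A and 5 of letter E, against 5 c arrays of letter A and 6 of letter E. LPS blood had 5 x arrays of each letter and 6 c arrays of each letter. TH blood had 5 x arrays of letter A and 6 of letter E, and the same numbers of c arrays. The spleen sets held 6 x and 5 c arrays for burn, whose labels name spleen leukocytes, 6 x and 6 c arrays for LPS, whose titles carry a version mark, and 5 x and 6 c arrays for TH. Strain, age, sex, time and what separates x from c are not given in the labels, and the 6 sets share no array. Whether each array stands for its own animal is not labelled, and the p-values therefore reflect array-to-array spread that may be technical. Arrays of a group are numbered by accession order only.

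Mitochondria carry their own ribosome, which translates the few proteins encoded in mitochondrial DNA, all of them core subunits of the respiratory chain and ATP synthase. Its proteins are encoded in the nucleus, made in the cytosol and imported, so their supply has to be matched to mitochondrial rRNA. Some descend from bacterial ribosomal proteins and others are found only in mitochondria. A few symbols mislead: the products of Mrps30 and Mrps18a sit in the large subunit of mammalian mitoribosomes, that of Mrps36 is now known as a subunit of the alpha-ketoglutarate dehydrogenase complex, and that of Mrpl58 is a peptidyl-tRNA hydrolase that rescues stalled ribosomes.

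Many nuclear genes for mitochondrial proteins carry promoter sites for NRF1 and for the ETS-family factor GABP. RefSeq promoters on GRCm38.p6, from 250 bases before to 50 bases after the start, matched 65 of the 74 members. The NRF1 core CGCATGCG, which is its own reverse complement, stood in 7 of these 65 promoters (10.8%) and in 517 of 27025 promoters of all genes (1.91%). The ETS core CCGGAAGT, or its reverse complement ACTTCCGG, stood in 10 of 65 (15.4%), against 1081 of 27025 (4.0%). No member promoter held both, and 17 of 65 (26.2%) held either, against 1547 of 27025 (5.72%). These are letter matches within a window and not measured binding. The 150 bases before the start are printed for 5 members described below, 4 of which hold a motif there while Mrps15 holds none; motif letters are in capitals. They lie at chr9:105053118-105053267 on the plus strand for Mrpl3, chr16:84735245-84735394 on the minus strand for Mrpl39, chr7:105811088-105811237 on the minus strand for Mrpl17, chr11:97041432-97041581 on the plus strand for Mrpl10 and chr4:126046778-126046927 on the plus strand for Mrps15.
Mrpl3: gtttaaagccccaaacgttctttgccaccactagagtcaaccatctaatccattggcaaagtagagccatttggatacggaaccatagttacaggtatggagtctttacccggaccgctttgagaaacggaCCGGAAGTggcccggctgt
Mrpl39: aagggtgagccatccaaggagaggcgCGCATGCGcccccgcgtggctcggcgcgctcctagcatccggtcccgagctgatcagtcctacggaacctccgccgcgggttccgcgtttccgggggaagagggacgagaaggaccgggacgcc
Mrpl17: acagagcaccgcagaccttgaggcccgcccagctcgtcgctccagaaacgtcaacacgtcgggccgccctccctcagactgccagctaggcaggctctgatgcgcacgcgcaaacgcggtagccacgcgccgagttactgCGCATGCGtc
Mrpl10: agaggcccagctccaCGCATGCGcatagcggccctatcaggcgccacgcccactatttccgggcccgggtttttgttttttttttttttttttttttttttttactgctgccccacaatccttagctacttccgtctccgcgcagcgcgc
Mrps15: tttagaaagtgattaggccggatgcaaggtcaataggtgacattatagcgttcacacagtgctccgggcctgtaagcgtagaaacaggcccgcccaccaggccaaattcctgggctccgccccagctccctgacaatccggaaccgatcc
Mrpl3 holds the ETS core 19 bases before its start, and Mrpl39, Mrpl17 and Mrpl10 hold the NRF1 core 124, 10 and 135 bases before theirs. The Mrps15 window holds neither set of letters.

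All levels below are log2(intensity + 16) after quantile normalization of the arrays of a tissue, on which scale differences of dim genes are understated. Levels of different sets or genes are not compared, because the lowest deposited value differs between sets (9.68 in burn spleen and 32.5 in LPS blood, for example). Each x minus c difference was tested with limma over 10247 genes per set, and "passed" means a Benjamini-Hochberg adjusted p under 0.05 over all of them. Of the marker lists of 8 cell classes, the fewest genes above the low-signal filter were 4 of 9 erythroid markers in burn spleen, and no marker was at the lowest deposited value on all arrays of a group. The beta-actin control probe sets gave a 3' to 5' log2 ratio that rises as RNA signal shifts to the 3' end. In LPS blood this ratio was 1.07 ± 0.105 in x and 1.58 ± 0.0587 in c arrays (mean ± SD), and in TH blood 1.42 ± 0.191 in x and 1.99 ± 0.135 in c arrays, with no overlap between codes in either set. In the other 4 sets the codes overlapped. Of the burn blood c arrays, replicates 4 and 5 of letter E stand apart, and the count and Mrpl33 are given with and without them.

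The members were not a block that moved one way. Of 74, 53 passed in at least 1 set and 21 in none, and 52 were measured above the low-signal filter in all 6 sets. Among the 53, 14 were higher in x wherever they passed, 23 were lower, and 16 were higher in 1 set and lower in another. Only Mrps15 passed in 1 direction in 4 sets, while 2 members were lower in 3 sets, 9 were lower in 2 sets and 4 were higher in 2 sets. These counts rest on 1 probe set per member. The same counts were not made over all genes, of which 54.2% passed in TH blood alone. They therefore do not set the members apart from other genes.

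**Figure D1:**
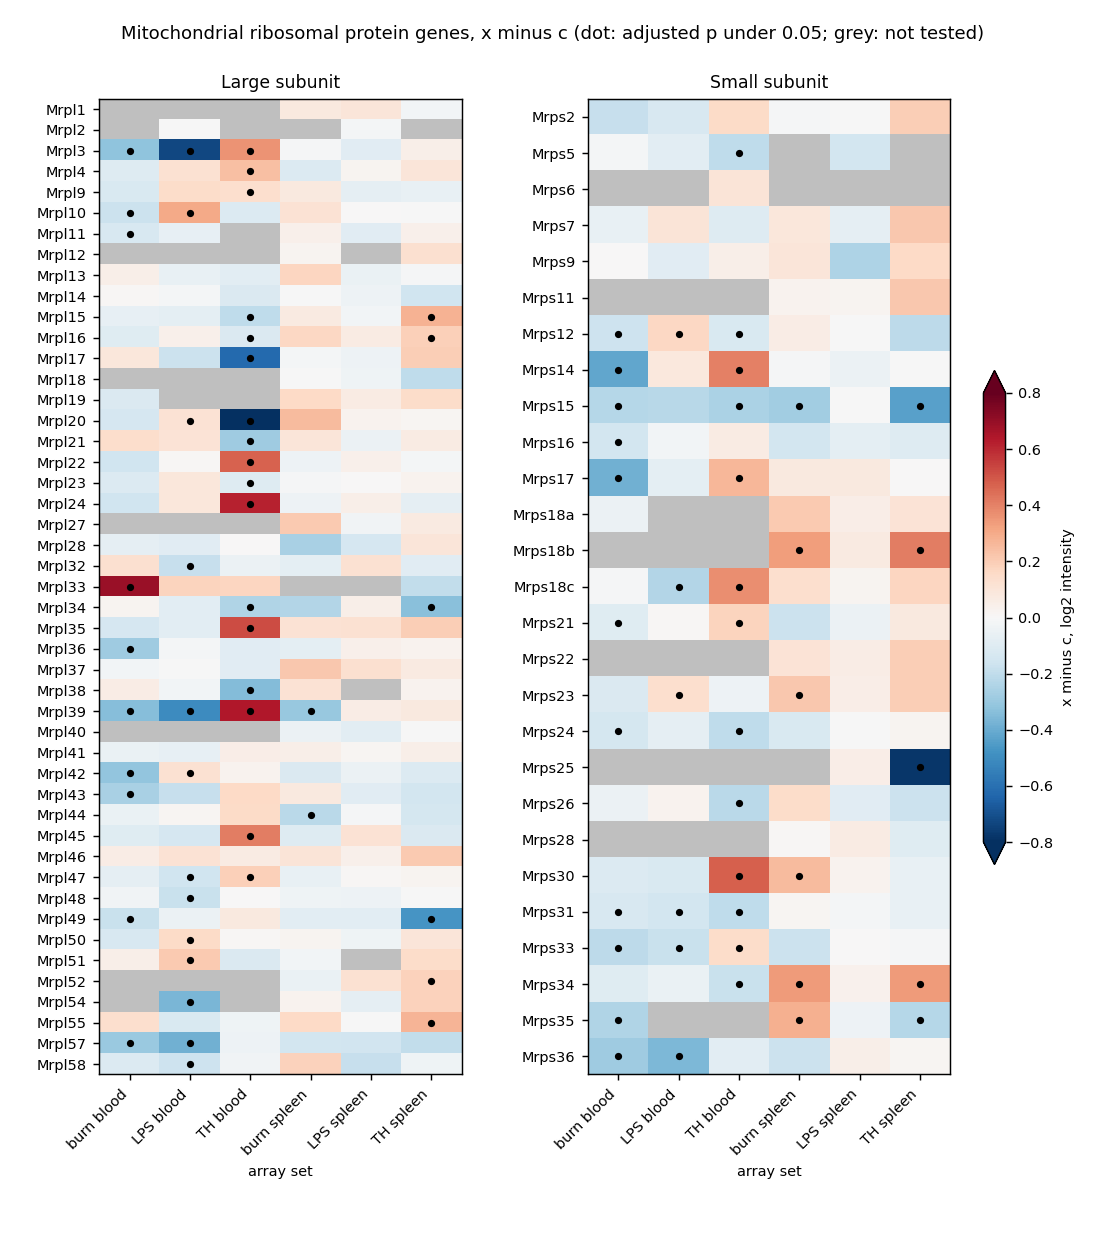
Difference x minus c (log2) of every member in the 6 sets, with the sets as columns and the members as rows. Reds are higher in x and blues lower; burn blood is mostly blue (20 lower, 1 higher past the threshold), TH blood is mixed (15 each way), and LPS spleen is pale (none past the threshold).

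In burn blood the members leaned lower in x. Of 60 tested, 20 passed as lower and 1 as higher, 33.3% and 1.67%, against 11.6% lower and 7.97% higher among all genes tested. The median member differed by -0.11 (log2), the median gene by -0.01, and 48 of the 60 differences were below 0. By symbol, 11 of 21 members named for the small subunit passed as lower, Mrps36 among them, and none as higher. Of 39 named for the large subunit, 9 passed as lower and 1 as higher. Letter A arrays alone gave 20 members (1 higher, 19 lower) with a median of -0.16, where 20.1% of all genes passed, and letter E arrays alone gave 3, all lower, with a median of -0.06, where 2.89% of all genes passed; the difference between letters itself passed for 0 members in limma, with 10 at an unadjusted p under 0.05. Fewer cells of a type and less RNA per cell cannot be told apart in these mixed leukocytes.

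Mrps14 and Mrps17, counterparts of bacterial small-subunit proteins S14 and S17, had the lowest x minus c differences. Mrps14 ran from 7.08 to 7.48 with a median of 7.36 in x arrays, against 7.60 to 7.95 with a median of 7.76 in c arrays. No x array reached the lowest c array, and the difference was -0.42 ± 0.05 (SE, adjusted p = 7.71e-06). Mrps17 likewise did not overlap, at 7.36 to 7.61 (median 7.53) in x and 7.63 to 8.05 (median 7.93) in c, with a difference of -0.38 ± 0.05 (adjusted p = 6.9e-06). The further probe set of Mrps14 differed by -0.03 and did not pass. Mrpl39, a large-subunit protein whose sequence resembles threonyl-tRNA synthetases, ran from 7.49 to 7.79 (median 7.66) in x and from 7.65 to 8.16 (median 8.01) in c. All 9 x arrays lay below the c mean, and the difference was -0.34 ± 0.06 (adjusted p = 0.000247); its other probe set also passed as lower, at -0.17.

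Mrpl33, counterpart of the small bacterial protein L33, was the single member that passed as higher. It ran from 7.84 to 8.53 (median 8.24) in x arrays, against 7.08 to 8.67 (median 7.48) in c arrays, a difference of 0.69 ± 0.17 (adjusted p = 0.00506). The overlap came from replicates 4 and 5 of the c arrays of letter E, at 8.13 and 8.67. The other 4 c arrays of that letter lay between 7.08 and 7.23. Without that pair the Mrpl33 difference was 0.90 (adjusted p = 1.52e-08), and 26 members passed, 25 lower and 1 higher. The pair held the highest Mrpl33 levels of the c arrays and the lowest c means over the members (7.52 and 7.47). Leaving it out therefore favours both results by construction and lends them no support. Among letter E arrays alone it was 0.61 and did not pass (adjusted p = 0.294).

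The further 17 members that were lower in burn blood differed by -0.10 (Mrps21) to -0.32 (Mrpl3). On the large subunit these were Mrpl3, Mrpl10, Mrpl11, Mrpl36, Mrpl42, Mrpl43, Mrpl49 and Mrpl57. By small-subunit symbol they were Mrps12, Mrps15, Mrps16, Mrps21, Mrps24, Mrps31, Mrps33, Mrps35 and Mrps36. Mrpl3 lost its call without replicate 2 of the x arrays of letter A, and Mrpl57 (-0.30 ± 0.09, adjusted p = 0.0252) without replicate 2 or 3 of those arrays or replicate 5 of the c arrays of letter A.

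Cell markers differed in burn blood as well. All but 1 of 10 B-cell markers tested were lower in x and none higher, and their summed deposited intensity was 4445 to 6002 in x arrays and 5719 to 14056 in c arrays. Of 14 neutrophil markers, 8 were higher and none lower, with sums of 23554 to 38727 in x and 6217 to 58793 in c. Of 41 cytosolic ribosomal proteins, 13 were lower and 1 higher, with a median difference of -0.15. The part of cell makeup in the members' differences was not tested.

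**Figure D2:**
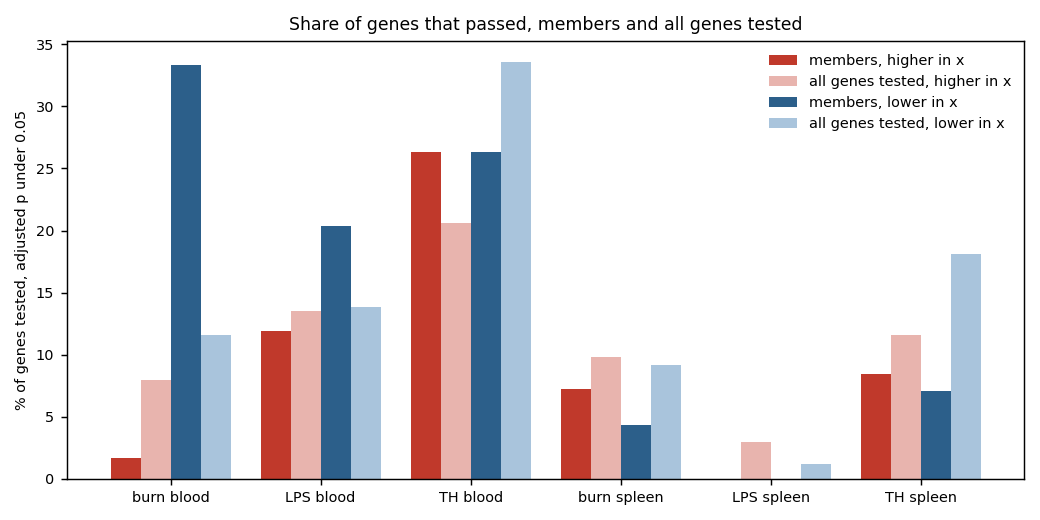
Share (%) of members and of all genes tested that passed as higher or lower in x in each set. The dark blue bar of burn blood (33.3% of members lower) stands above its pale neighbour (11.6% of all genes), while in the spleen sets the members' bars lie below those of all genes.

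The LPS blood members went both ways. Of 59 tested, 7 passed as higher and 12 as lower in x, 11.9% and 20.3%, against 13.6% and 13.9% among all genes. By symbol, the large subunit gave 5 higher and 8 lower of 40 and the small subunit 2 and 4 of 19. The median member differed by -0.06. Without quantile normalization the split was 5 higher and 14 lower.

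Mrpl3, whose bacterial counterpart lies near the peptidyl transferase centre, had the widest fall. It ran from 7.24 to 8.47 (median 7.78) in x and from 7.89 to 8.92 (median 8.53) in c. Every x array lay below the c mean although the ranges overlapped, and the difference was -0.73 ± 0.13 (adjusted p = 0.000262), 0.603 of the c level. Mrpl39 ran from 7.35 to 8.08 (median 7.70) in x and from 7.94 to 8.43 (median 8.19) in c, differing by -0.50 ± 0.08 (adjusted p = 6.65e-05). Its other probe set differed by 0.02 in this set. Mrpl57, also called Mrp63, was at 7.95 to 8.63 (median 8.31) in x and 8.26 to 8.97 (median 8.68) in c, with a difference of -0.38 ± 0.09 (adjusted p = 0.00193), while its other probe set passed the opposite way at 0.16.

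The highest differences of LPS blood were smaller. Mrpl10, the stalk-base protein that carries L7/L12 in bacteria, was at 7.75 to 8.32 (median 8.11) in x and 7.68 to 7.94 (median 7.79) in c, a difference of 0.30 ± 0.05 (adjusted p = 0.000127). Of the 10 x arrays, 9 lay above the c mean. Mrpl51, found only in mitochondrial ribosomes, differed by 0.21 ± 0.07 (adjusted p = 0.024), but a further probe set passed as lower at -0.28. That further probe set also passed as lower in burn blood (-0.43) and as higher in TH blood (0.42). Mrps12, counterpart of the decoding-centre protein S12, differed by 0.17 ± 0.04 (adjusted p = 0.00417), all 10 x arrays lying above the c mean. Of 4 further probe sets of members that passed in LPS blood, none had the sign of the probe set used and 3 passed in the opposite direction.

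The other members that passed in LPS blood were 4 higher and 9 lower. Mrpl20, Mrpl42, Mrpl50 and Mrps23 were higher by 0.11 to 0.15, and the Mrpl20 call was lost in 15 of 22 fits that each left out 1 array. Mrpl54 and Mrps36 were lower at -0.36 each. Mrpl32, Mrpl47, Mrpl48, Mrpl58, Mrps18c, Mrps31 and Mrps33 were lower at -0.15 to -0.23.

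With the actin ratio as a covariate 5 members passed in LPS blood, 1 higher and 4 lower, and Mrpl10 turned to -0.15 and Mrpl51 to -0.00 without passing. Because the ratio does not overlap between x and c, code and RNA quality cannot be told apart there. Neutrophil markers were higher in x for 11 of 14 and lower for none, with summed intensities of 17484 to 61577 in x and 11161 to 44267 in c, while 6 of 10 platelet markers were higher and none lower (sums of 19529 to 26471 in x and 17463 to 23447 in c). Their part was not tested. Taking letters apart, 4 of 59 members (6.78%) passed among A arrays, against 7.14% of all genes, and 10 (16.9%) among E arrays, against 17.6% of all genes.

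TH blood had the most members past the threshold, and equally many each way. Of 57 tested, 15 passed as higher and 15 as lower in x, 26.3% each, against 20.6% higher and 33.6% lower among all genes. Of the 15 that were higher, 3 (Mrpl9, Mrpl22 and Mrpl24) had a c mean under the signal filter. Their differences lend no support to the count or to the even split. No member that passed here had an x mean under the filter. The median member differed by 0.00 and the median gene by -0.06. By symbol, the large subunit gave 9 higher and 8 lower of 37, the small subunit 6 and 7 of 20. Without quantile normalization the split was 16 higher and 10 lower.

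Mrpl20, whose bacterial counterpart L20 joins the large subunit early in assembly, fell the most of any member in any set. It ran from 8.97 to 9.46 (median 9.12) in x arrays, against 9.76 to 10.73 (median 10.10) in c arrays. The codes did not overlap, and the difference was -1.003 ± 0.11 (adjusted p = 3.3e-07), or 0.499 of the c level. Mrpl17, counterpart of a bacterial protein at the exit tunnel, ran from 8.17 to 9.11 (median 8.79) in x and from 9.03 to 9.65 (median 9.42) in c, differing by -0.62 ± 0.10 (adjusted p = 4.65e-05); its other probe set also passed as lower, at -0.19. Mrpl38, a mitochondria-specific protein of the central protuberance, differed by -0.35 ± 0.08 (adjusted p = 0.000823), with all 11 x arrays below the c mean.

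The highest was Mrpl39, the reverse of its place in the other blood sets. It ran from 7.61 to 8.24 (median 7.82) in x and from 6.99 to 7.64 (median 7.15) in c. Every x array lay above the c mean, and the difference was 0.64 ± 0.09 (adjusted p = 7.11e-06), while its other probe set differed by -0.18 and did not pass. Mrpl24, counterpart of an assembly-initiating protein of the bacterial exit tunnel, was at 6.84 to 7.82 (median 7.42) in x and 6.49 to 7.50 (median 6.68) in c, differing by 0.62 ± 0.12 (adjusted p = 0.000202). Its c mean of 6.80 lay under the signal filter of 6.82, so it was tested only through its x arrays, as were Mrpl9 and Mrpl22 (adjusted p of Mrpl24 = 0.000574 with no filter). Mrpl35, counterpart of bacterial L35, differed by 0.52 ± 0.10 (adjusted p = 0.000242), and its other probe set also passed, at 0.16. Mrpl3 and Mrps14 were higher as well, by 0.36 ± 0.07 (adjusted p = 0.000173) and 0.40 ± 0.07 (adjusted p = 4.91e-05), and Mrps17 by 0.27 ± 0.05 (adjusted p = 0.000158).

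The further members that were higher in TH blood were Mrpl4, Mrpl9, Mrpl22, Mrpl45, Mrpl47, Mrps18c, Mrps21, Mrps30 and Mrps33, by 0.13 (Mrpl9) to 0.48 (Mrps30). Those that were lower were Mrpl15, Mrpl16, Mrpl21, Mrpl23, Mrpl34, Mrps5, Mrps12, Mrps15, Mrps24, Mrps26, Mrps31 and Mrps34, at -0.10 (Mrpl23) to -0.28 (Mrpl21). Mrpl22 and Mrpl45 did not overlap between codes. Mrps34 lost its call in 16 and Mrps12 in 7 of 22 fits that each left out 1 array.

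With the actin ratio as a covariate 0 members passed in TH blood in limma, with 2 at an unadjusted p under 0.05, and Mrpl20 was at -0.76 (adjusted p = 0.205). The ratio separates the codes fully, so code and RNA quality cannot be told apart in this set. Among A arrays alone 21 members passed (15 higher, 6 lower; 36.8%, against 41.6% of all genes) and among E arrays alone 11 (5 higher, 6 lower; 19.3%, against 23.4% of all genes). Of 40 cytosolic ribosomal proteins, 22 were higher and 1 lower in x, with a median of 0.36. Neutrophil markers were higher for 8 and lower for 2 of 14, with sums of 32885 to 94064 in x and 11515 to 44836 in c. B-cell markers were lower for 3 of 9, erythroid for 3 of 7, platelet for 3 of 10 and proliferating-cell markers for 6 of 13, of which 3 others were higher. The B-cell (33.3%) and platelet (30%) shares lie near the 33.6% of all genes that were lower in this set, where 20.6% were higher. T-cell markers were higher for 1 and lower for 2 of 9, NK-cell markers for 2 and 1 of 7, and monocyte and macrophage markers for 2 and 1 of 10. Their part was not tested.

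**Figure D3:**
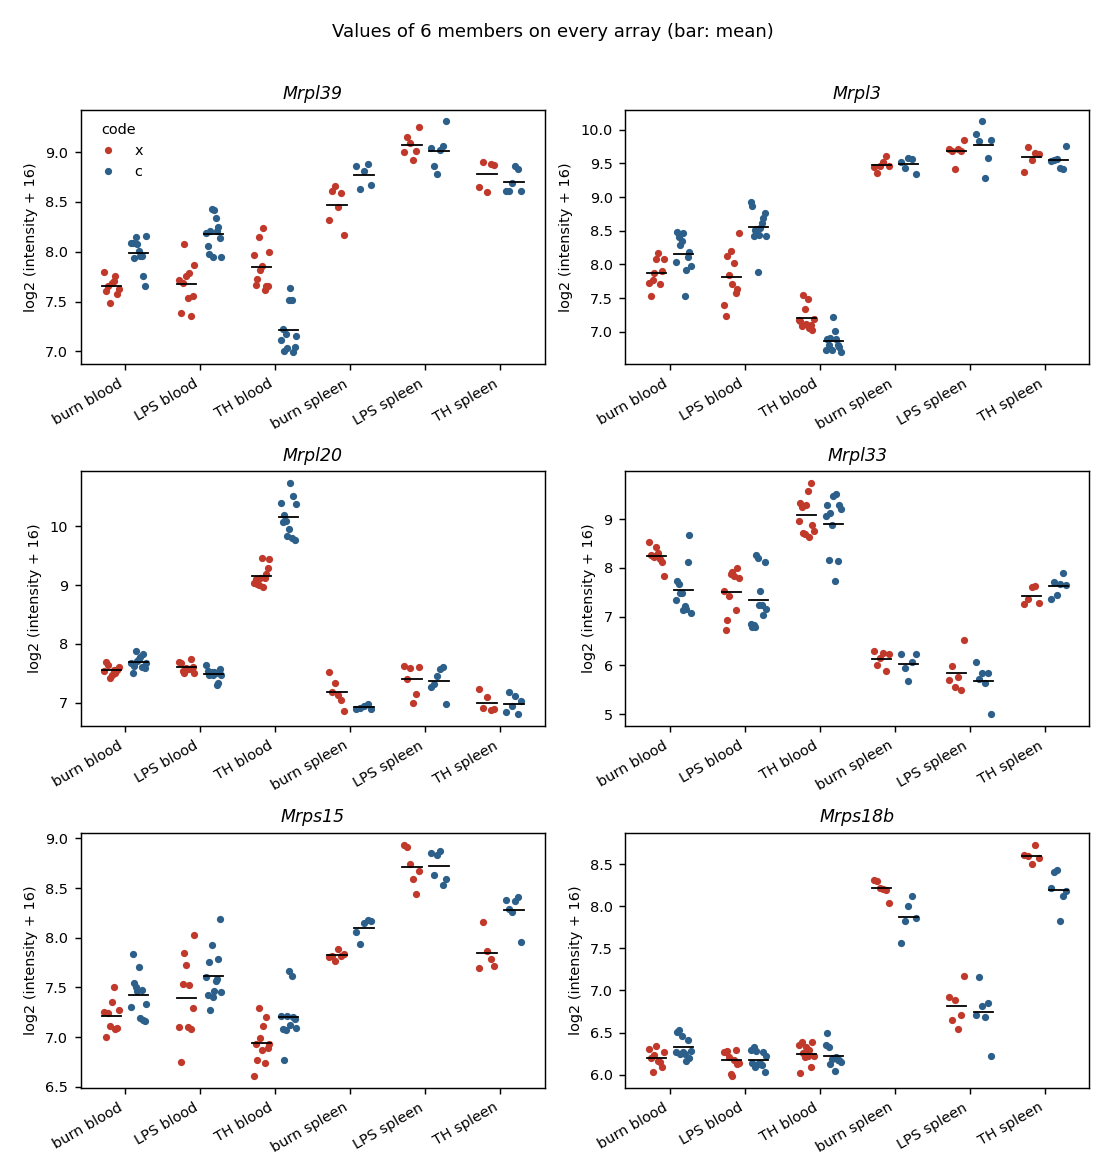
log2 level of Mrpl39, Mrpl3, Mrpl20, Mrpl33, Mrps15 and Mrps18b on every array, x left of c within each set. By the probe set used, Mrpl39 is lower in x in burn and LPS blood and higher in TH blood (7.61 to 8.24 in x, 6.99 to 7.64 in c). Mrpl20 in TH blood shows no overlap.

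Differences between the blood models were then tested directly, in 1 fit of all blood arrays with 58 members tested. TH minus burn gave 28 members that passed, 23 positive and 5 negative, against 45.2% of all genes. By direction, 39.7% of members and 20.1% of all genes were positive, and 8.62% of members and 25.1% of all genes negative. Mrpl39 had a TH minus burn difference of 0.98 ± 0.12 (adjusted p = 8.66e-10), Mrps14 of 0.82 ± 0.10 (adjusted p = 7.29e-10) and Mrps17 of 0.65 ± 0.08 (adjusted p = 9.85e-10). The other Mrpl39 probe set had x minus c of -0.17 in burn, 0.02 in LPS and -0.18 in TH blood. The Mrpl39 differences between models therefore rest on 1 of 2 probe sets. The most negative were Mrpl20 at -0.87 ± 0.11 (adjusted p = 1.89e-09) and Mrpl17 at -0.71 ± 0.14 (adjusted p = 2.63e-05). The Mrpl17 probe set used was at 0.09 in burn blood. Its other probe set passed as lower in both burn blood (-0.23) and TH blood, so this Mrpl17 difference rests on 1 of 2 probe sets. TH minus LPS also gave 28, of which 18 were positive and 10 negative, against 49.4% of all genes, led by Mrpl39 at 1.14 ± 0.11 (adjusted p = 3.46e-12), Mrpl20 at -1.12 ± 0.10 (adjusted p = 4.68e-13) and Mrpl3 at 1.09 ± 0.15 (adjusted p = 2.69e-08). In TH minus LPS, 31.0% of members and 21.0% of all genes were positive, and 17.2% and 28.4% negative. These comparisons share the TH arrays. Burn minus LPS gave 14, with 3 positive and 11 negative (5.17% and 19.0%), against 21.4% of all genes (9.66% positive and 11.8% negative), led by Mrps14 at -0.50 ± 0.10 (adjusted p = 6.52e-05) and Mrpl10 at -0.48 ± 0.07 (adjusted p = 7.95e-07). The actin ratio did not overlap between codes in LPS and TH blood but did in burn blood, and its part in these differences was not tested.

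**Figure D4:**
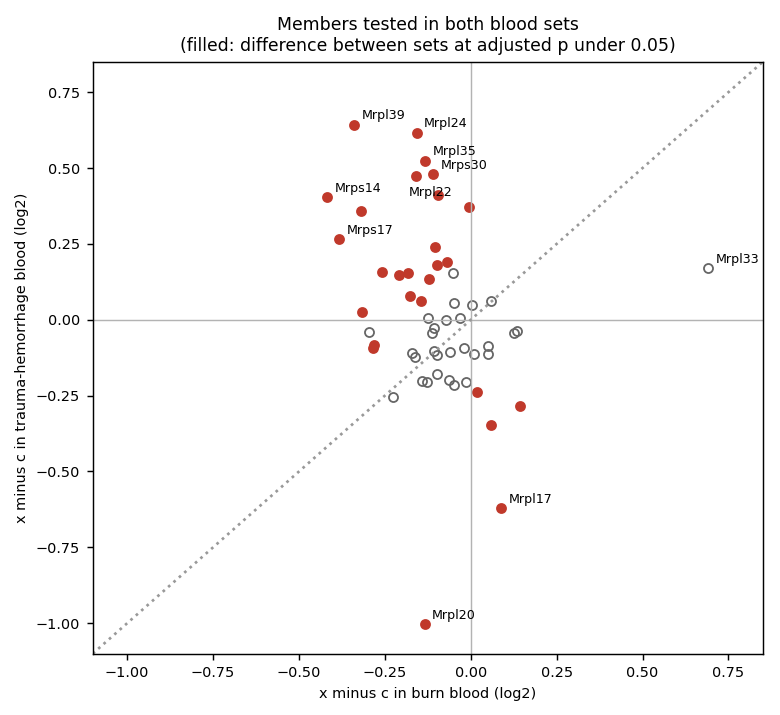
x minus c (log2) of the 56 members tested in both sets, TH blood on the vertical and burn blood on the horizontal axis. Filled points (27) are members whose difference between the sets passed; Mrpl39, Mrps14 and Mrps17 lie at upper left and Mrpl20 and Mrpl17 at the bottom.

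The letters gave no member past the threshold. E minus A, injury or infusion minus sham, passed for 0 members in burn, LPS and TH blood, with 3, 1 and 7 members at an unadjusted p under 0.05. Among all genes 0%, 0% and 0.0293% passed in limma, or 0, 0 and 3 genes, against 2007, 2811 and 5553 genes for x minus c. The arrays thus show few genes that differ between the letters that the labels give to injury or infusion and to sham. What this reflects was not tested. Whether x minus c itself differed between letters was tested too, and again 0 members passed in any blood set, with 10, 3 and 7 at an unadjusted p under 0.05 and 0% of all genes in each.

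In burn spleen few members passed. Of 69 tested, 5 were higher and 3 lower in x (7.25% and 4.35%), against 9.79% and 9.16% of all genes, and all 5 higher members carry small-subunit symbols. Mrps34, a mitochondria-specific protein needed for small-subunit stability in mice, ran from 7.80 to 8.14 (median 7.97) in x, against 7.90, 7.51, 7.61, 7.75 and 7.41 in the 5 c arrays. All 6 x arrays lay above the c mean, and the difference was 0.34 ± 0.09 (adjusted p = 0.016). Mrps18b, a mammalian relative of bacterial S18, was at 8.04 to 8.31 (median 8.21) in x and at 7.57, 7.83, 8.01, 8.13 and 7.86 in c, a difference of 0.33 ± 0.09 (adjusted p = 0.0172). Mrps35, another mitochondria-specific protein, differed by 0.28 ± 0.10 (adjusted p = 0.0483), a call lost in 8 of 11 fits that each left out 1 array. Mrps23 and Mrps30 were higher by 0.22 and 0.25.

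Of the 3 that were lower in burn spleen, Mrpl39 ran from 8.17 to 8.66 (median 8.52) in x, against 8.86, 8.63, 8.81, 8.88 and 8.67 in c, a difference of -0.30 ± 0.09 (adjusted p = 0.0298). Mrpl44, which carries an RNase III-like fold, did not overlap at 8.74 to 8.91 (median 8.80) in x and 9.01, 9.22, 8.99, 8.99 and 8.94 in c, differing by -0.21 ± 0.07 (adjusted p = 0.0383). The third was Mrps15, described below. Over the 11 fits that each left out 1 array, Mrpl39 lost its call in 6 and Mrpl44 in 7, and 4 to 8 members passed: 4 without replicate 1 of c, and 5 without replicate 3 of c or replicate 1, 4 or 5 of x. Without quantile normalization 5 passed, 4 higher and 1 lower, and Mrpl39 did not (adjusted p = 0.0867), nor did it with no filter (adjusted p = 0.0538). Monocyte and macrophage markers were lower in x for 10 of 11 (sums of 3006 to 3547 in x and 4220 to 6250 in c), B-cell markers for 9 of 11 (12630 to 14592 in x and 16891 to 19376 in c), and T-cell markers were higher for 6 of 11 (4703 to 5817 in x and 2352 to 4026 in c). Proliferating-cell markers were lower for 7 of 16 and NK-cell markers for 4 of 8, with none higher, and summed erythroid markers did not overlap (420 to 495 in x and 815 to 1312 in c). Their part was not tested.

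LPS spleen showed no member past the threshold. Of 69 tested, 0 passed in limma, with 2 at an unadjusted p under 0.05 (Mrps9 and Mrpl57), while 3% of all genes passed as higher and 1.19% as lower. The members' differences lay between -0.25 and 0.13 with a median of -0.00. Neutrophil markers were higher in x for 7 of 14 and lower for none (sums of 22184 to 33097 in x and 10761 to 23703 in c). NK-cell markers were higher for 2 and lower for 2 of 8, and B-cell markers were lower for 2 of 10. T-cell, monocyte and macrophage, and platelet markers were lower for 1 of 11, 1 of 11 and 1 of 9. Their part was not tested.

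TH spleen gave 6 members higher and 5 lower of 71 in x (8.45% and 7.04%), against 11.6% and 18.1% of all genes. Mrps18b did not overlap at 8.60, 8.60, 8.50, 8.73 and 8.57 in x, against 7.83 to 8.43 (median 8.20) in c, a difference of 0.41 ± 0.10 (adjusted p = 0.00555). Mrps34 did not overlap either, at 7.99, 8.03, 7.90, 8.24 and 8.05 in x, against 7.55 to 7.84 (median 7.74) in c, differing by 0.34 ± 0.08 (adjusted p = 0.00361). These were thus higher in both the burn and the TH spleen. Mrpl15, counterpart of bacterial L15, differed by 0.28 ± 0.10 (adjusted p = 0.0398), a call lost in 7 of 11 fits that each left out 1 array. Mrpl16, Mrpl52 and Mrpl55 were higher by 0.19, 0.19 and 0.27.

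Mrps25, a mitochondria-specific small-subunit protein, was lower in TH spleen. It was at 6.31, 6.25, 6.48, 5.91 and 6.20 in x arrays of TH spleen, against 6.44 to 7.45 (median 7.01) in c arrays. Only the lowest c array reached the x range, and the difference was -0.78 ± 0.15 (adjusted p = 0.00105). The x mean of 6.23 lay under the signal filter of 6.30 and the c mean of 7.01 above it, so Mrps25 was tested only through its c arrays, and its difference lends no support to the count (adjusted p = 0.00511 with no filter). In burn spleen Mrps25 lay under the signal filter of the gene test. Tested per probe set it was at -0.59 ± 0.13 (adjusted p = 0.0038). That pass depends on the filter and lends no support to the TH spleen difference. Mrpl49, a mitochondria-specific large-subunit protein, was at 7.06, 7.43, 7.50, 7.12 and 6.91 in x and 7.53 to 7.86 (median 7.66) in c, with no overlap and a difference of -0.47 ± 0.10 (adjusted p = 0.00309). Mrpl34 did not overlap either (-0.33), and Mrps35 was lower at -0.23 (adjusted p = 0.0215), a call lost without replicate 3 or 5 of x.

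Leaving out 1 array of TH spleen gave 7 to 15 members, with 7 without replicate 3 or 4 of c or replicate 4 of x. Without quantile normalization 3 were higher and 6 lower. T-cell markers were lower in x for 9 of 11 (sums of 2762 to 3666 in x and 4340 to 5442 in c) and B-cell markers for 7 of 10 tested (12604 to 16251 in x and 18594 to 22355 in c), while neutrophil markers were higher for 7 of 14 (14660 to 22423 in x and 7449 to 15821 in c). Their part was not tested.

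Mrps15, counterpart of the bacterial protein S15 that binds rRNA early in small-subunit assembly, was the member with the most even direction. In burn spleen it ran from 7.76 to 7.89 (median 7.82) in x, against 8.06, 7.94, 8.15, 8.18 and 8.17 in c, with no overlap and a difference of -0.28 ± 0.07 (adjusted p = 0.00812). In TH spleen it was at 7.70, 8.16, 7.86, 7.79 and 7.72 in x and 7.96 to 8.41 (median 8.33) in c, a difference of -0.43 ± 0.10 (adjusted p = 0.004). The other Mrps15 probe set also passed as lower in both, at -0.33 and -0.39. The blood differences were -0.26 ± 0.09 in TH (adjusted p = 0.0179) and -0.23 ± 0.08 in burn (adjusted p = 0.0484), and the burn call was lost in 14 of 20 fits that each left out 1 array. LPS blood gave -0.22 ± 0.13 and LPS spleen -0.00 ± 0.09, neither of which passed.

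Between spleen models, TH minus LPS passed for 4 members of 72, against 13.4% of all genes, among them Mrps25 at -0.83 ± 0.18 (adjusted p = 0.00127) and Mrps15 at -0.43 ± 0.13 (adjusted p = 0.0171). Burn minus LPS passed for 2, against 10.4% of all genes, with Mrps25 at -0.64 ± 0.18 (adjusted p = 0.0177), a gene under the filter in burn spleen that entered through its level in LPS spleen, and TH minus burn for 4, against 25.5% of all genes, with Mrps35 at -0.51 ± 0.14 (adjusted p = 0.00711). The first pair share the LPS arrays. For Mrps34 and Mrps18b, higher in burn and TH spleen and not past the threshold in LPS spleen, the difference from LPS did not pass (adjusted p = 0.0815 and 0.373 for burn, 0.0674 and 0.206 for TH).

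Between tissues, with letter E arrays only, blood minus spleen passed in TH for 9 of 53 members, against 27.2% of all genes. Mrpl20 had a blood minus spleen difference of -0.96 ± 0.20 (adjusted p = 0.00141), Mrpl17 of -0.86 ± 0.18 (adjusted p = 0.00119) and Mrps34 of -0.46 ± 0.13 (adjusted p = 0.0123). In LPS 4 of 57 passed, against 10.3% of all genes, with Mrpl39 at -0.66 ± 0.14 (adjusted p = 0.00246) and Mrpl3 at -0.60 ± 0.19 (adjusted p = 0.0421). In burn 2 of 56 passed, against 3.72% of all genes, namely Mrpl20 and Mrps17, and leaving out 1 array gave 0 to 5.

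The ribosome's partners were read from lists of the pathway. Their counts stand against all genes that passed in either direction, 19.6% in burn blood, 27.4% in LPS blood, 54.2% in TH blood, 19% in burn spleen, 4.19% in LPS spleen and 29.7% in TH spleen. Of 4 mitoribosomal proteins with other symbols on the arrays, Chchd1 differed by -0.33 in burn blood, -0.33 in LPS blood and 0.44 in TH blood, past the threshold in each (adjusted p = 0.0143, 0.0244 and 0.000122). Dap3, a GTP-binding small-subunit protein, was higher in LPS blood (0.15) and TH blood (0.21). Translation factors passed for 2 of 7 tested in burn blood (both lower), 3 of 8 in LPS blood (1 higher, 2 lower), 3 of 8 in TH blood (all higher) and 4 of 10 in TH spleen (2 each way). The 3 of 8 in TH blood (37.5%) lie below the share of all genes there. Slirp, which with Lrpprc stabilises mitochondrial mRNAs, differed by -0.24 in LPS blood (adjusted p = 0.0149), 0.66 in TH blood (adjusted p = 1.68e-05) and 0.44 in TH spleen (adjusted p = 0.000443). C1qbp, a matrix protein needed for mitochondrial translation, differed by -0.39 in burn blood, -0.40 in LPS blood and 0.57 in TH blood, passing in all 3.

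Among mitochondrial tRNA synthetases and tRNA or rRNA modifiers, none of 8 passed in burn blood, none of 6 in LPS blood and 1 of 7 in TH blood, but 4 were higher and 2 lower of 14 in burn spleen and 4 and 1 of 13 in TH spleen. Nsun4, a methyltransferase of the mitochondrial small-subunit rRNA, was higher by 0.49 in burn spleen (adjusted p = 0.00551) and 0.68 in TH spleen (adjusted p = 1.39e-05), and Ears2, the glutamyl-tRNA synthetase, by 0.27 and 0.34. Of the assembly factors, 3 of 14 passed in burn blood, 2 of 12 in LPS blood, 3 of 10 in TH blood, 3 of 14 in burn spleen and 2 of 14 in TH spleen. The share was below that of all genes in LPS blood (27.4%), TH blood (54.2%) and TH spleen (29.7%). Mterf3, an assembly factor that also acts on mitochondrial transcription, differed by -0.19 in burn blood, 0.47 in TH blood and 0.26 in burn spleen. Fastkd2 was lower in burn blood (-0.36) and LPS blood (-0.26).

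Mitochondrial DNA and transcription genes passed as 2 higher and 4 lower of 13 in burn blood, 1 and 4 of 12 in LPS blood, 3 and 4 of 13 in TH blood, 3 and 1 of 16 in burn spleen and 2 and 3 of 16 in TH spleen. The 7 of 13 in TH blood are close to the 54.2% of all genes. Ssbp1, the single-stranded DNA-binding protein of mitochondrial replication, differed by -0.44 ± 0.07 in burn blood (adjusted p = 0.000203), -0.74 ± 0.12 in LPS blood (adjusted p = 8.93e-05) and 0.71 ± 0.12 in TH blood (adjusted p = 7.89e-05), and by -0.19 in burn spleen. Polg2, the accessory subunit of the mitochondrial DNA polymerase, was higher in burn blood (0.16) and burn spleen (0.44) and lower in LPS blood (-0.13) and TH spleen (-0.30). Import and quality-control genes gave 7 higher and 2 lower of 17 in TH blood and 1 and 5 of 20 in LPS blood. The co-chaperonin Hspe1 differed by -0.56 in LPS blood and 0.51 in TH blood, and the import channel gene Timm23 by -0.24 and 0.49.

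Regulators of mitochondrial biogenesis passed both ways. They gave 1 higher and 0 lower of 7 in burn blood, 3 and 2 of 10 in LPS blood and 3 and 4 of 8 in TH blood. In spleen they gave 0 and 1 of 10 for burn, 2 and 0 of 9 for LPS and 3 and 3 of 9 for TH. The 2 named by the rule of most sets passed were Gabpb1 and Myc. Gabpb1, which encodes a GABP subunit, was higher in LPS blood by 0.71 ± 0.08 (adjusted p = 8.18e-07), in TH blood by 0.65 ± 0.12 (adjusted p = 0.000129), in LPS spleen by 0.41 ± 0.09 (adjusted p = 0.00948) and in TH spleen by 0.43 ± 0.08 (adjusted p = 0.00111). Myc, a regulator of ribosome production, was higher in burn blood (0.21), LPS blood (0.21), LPS spleen (0.89 ± 0.14, adjusted p = 0.000669) and TH spleen (1.24 ± 0.11, adjusted p = 6.82e-07). Both genes were higher in LPS spleen and in TH spleen. Any link between these regulators and the members was not tested. Of the cytosolic ribosomal proteins, 5 were higher and 16 lower of 40 in LPS blood, 7 and 1 of 43 in burn spleen, 0 of 41 passed in LPS spleen and 2 and 3 of 43 in TH spleen. Rpl12 was higher in burn blood (0.19), burn spleen (0.46) and TH spleen (0.36), and Rps3a1 was lower in burn blood (-0.25) and higher in TH blood (0.62) and burn spleen (0.11).

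The 21 members that passed in no set were Mrpl1, Mrpl2, Mrpl12, Mrpl13, Mrpl14, Mrpl18, Mrpl19, Mrpl27, Mrpl28, Mrpl37, Mrpl40, Mrpl41 and Mrpl46 of the large subunit and Mrps2, Mrps6, Mrps7, Mrps9, Mrps11, Mrps18a, Mrps22 and Mrps28 by small-subunit symbol. Not all were tested in every set, and Mrps6 was tested in 1 only. Tested per probe set, the probe sets used for Mrpl2, Mrpl27 and Mrpl40 passed as lower in burn blood (-0.15, -0.21 and -0.24). Those for Mrpl19 and Mrps18a passed as higher in TH blood (0.15 each). Further probe sets passed as lower in LPS blood for Mrpl28 (-0.32) and Mrps9 (-0.33 and -0.27), and as higher in TH blood for Mrpl1 (0.18). Data were simulated with the same arrays and groups and independent noise, with 100 of 10247 genes changed by 0.25 (log2) and 100 by 0.5. Changes of 0.25 were recovered for 53%, 54% and 36% of genes in burn, LPS and TH blood. In burn, LPS and TH spleen the shares were 16%, 12% and 12%. A member that did not pass may thus still differ by that size. More genes passed in each set itself than were changed in the simulation, and the adjusted p depends on that number. Recovery in the sets may therefore differ from these shares.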

How the data were processed

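The authors deposited 1 linear intensity per probe set and array in a table of 98 arrays, and its computation and scaling were not given in the sources read here. Of 22690 features, 64 manufacturer controls were left out. Symbols came from the platform gene table, and a feature with several symbols named no gene. From the deposited intensities log2(value + 16) was taken with quantile normalization over the arrays of 1 tissue. Where a gene had several probe sets, the one with the highest mean over all arrays stood for it. Genes with a mean under the 30th percentile of a set were left out, and 10247 were tested.

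Groups followed tissue, model, code and letter. The tests were two-sided and came from limma (version 3.58.1, under R version 4.3.3, moderated variances with a trend), with Benjamini-Hochberg adjustment over all genes tested. In blood, x minus c was averaged over both letters. The members and lists were chosen with earlier results of these data known. Members were named by a fixed rule: in each set the 3 largest differences past the threshold each way, members past it in 1 direction in at least 4 sets, and the 3 with the largest spread among those past it in both directions; of each other list, the 2 genes past it in the most sets. Others named beside counts (Mrps9, and the members past it in no set) were chosen after their values were seen. The procedure was tested on simulated data. Alternatives were the pseudocount, normalization, filter, every probe set alone, array weights, runs of title numbers as a block, all groups of a tissue in 1 fit, the actin ratio as a covariate, each letter alone and leaving out arrays. The number of arrays limits the precision.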

Additional observations from a re-analysis of the deposited data

Results flagged for a closer look

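Of 18 groups, 1 had an array whose mean over the members lay far from the others by Dixon's criterion, which chance meets in about 1 in 20 groups. It was the sixth c array of LPS spleen, at 7.599, against 7.778 to 7.851 for the rest of that group. Among 88 groups of the 22 named members, 6 had such an array: Mrpl10 in the fourth LPS blood x array of letter A (8.317, others 8.058 to 8.125), Mrpl33 in the first burn blood x array of letter A (8.525, others 8.23 to 8.26), Mrpl35 in the third TH blood c array of letter A (7.155, others 6.802 to 6.848), Mrpl44 in the second burn spleen c array (9.225, others 8.944 to 9.011), Mrps14 in the first burn blood c array of letter E (7.917, others 7.595 to 7.701) and Mrps15 in the sixth TH spleen c array (7.96, others 8.261 to 8.415).

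For the named members, 43 differences of x minus c between sets passed the threshold in limma, each read from 1 probe set per gene. Burn blood minus LPS blood differed in Mrps14 (-0.50), Mrpl10 (-0.48), Mrps12 (-0.33), Mrps17 (-0.31) and Mrpl3 (0.41). TH blood minus LPS blood differed in Mrpl20 (-1.12), Mrpl17 (-0.45), Mrpl10 (-0.41), Mrpl38 (-0.32), Mrpl51 (-0.32), Mrps12 (-0.29), Mrps14 (0.32), Mrps17 (0.34), Mrpl57 (0.34), Mrpl24 (0.53), Mrpl35 (0.61), Mrpl3 (1.09) and Mrpl39 (1.14). A further Mrpl51 probe set went the opposite way, passing as lower in LPS blood (-0.28) and as higher in TH blood (0.42). TH blood minus burn blood differed in Mrpl20 (-0.87), Mrpl17 (-0.71), Mrpl38 (-0.40), Mrpl49 (0.26), Mrps17 (0.65), Mrpl35 (0.66), Mrpl3 (0.68), Mrpl24 (0.77), Mrps14 (0.82) and Mrpl39 (0.98). Burn spleen minus LPS spleen differed in Mrps25 (-0.64). TH spleen minus LPS spleen differed in Mrps25 (-0.83) and Mrps15 (-0.43). TH spleen minus burn spleen differed in Mrps35 (-0.51) and Mrpl39 (0.38). Burn blood minus burn spleen differed in Mrps17 (-0.43) and Mrpl20 (-0.41). LPS blood minus LPS spleen differed in Mrpl39 (-0.66) and Mrpl3 (-0.60). TH blood minus TH spleen differed in Mrpl20 (-0.96), Mrpl17 (-0.86), Mrps34 (-0.46), Mrpl15 (-0.43), Mrpl38 (-0.39) and Mrpl49 (0.50).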

How the results depend on the processing

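Each set's count of members past the threshold stayed within 1.5 times of its value under both other pseudocounts, normalization within each set, no filter, title-number runs as a block and all groups of a tissue in 1 fit. Counts outside that range follow, and their cause was not tested. Letter E alone gave 3 in burn blood, 10 in LPS blood and 11 in TH blood, and letter A alone 4 in LPS blood, each from fewer arrays. The 50th-percentile filter, which tests fewer genes, gave 12 in LPS blood and 14 in TH blood, and for differences between sets 8 (burn minus LPS blood), 17 (TH minus burn blood), 4 (burn minus LPS spleen), 1 (burn blood minus spleen) and 5 (TH blood minus spleen). The actin ratio gave 5 in LPS blood and 0 in TH blood. No quantile normalization gave 5 in burn spleen and 1 for burn minus LPS spleen. Every probe set counted on its own gave 15 in burn spleen, 17 in TH spleen, 4 for burn minus LPS spleen and 7 for TH minus burn spleen. Array weights gave 17 in TH spleen, 23 for burn minus LPS blood, 7 for burn minus LPS spleen, 7 for burn blood minus spleen, 10 for LPS blood minus spleen and 1 for E minus A in LPS blood. For burn blood minus spleen, pseudocount 64 and no filter each gave 1. Leaving out 1 array stayed inside that range in blood, with 16 to 24 in burn, 16 to 20 in LPS and 27 to 31 in TH. It left that range in some fits of burn spleen (4 to 8) and TH spleen (7 to 15). The same held for burn minus LPS spleen (1 to 6) and burn blood minus spleen (0 to 5). Of 44 differences of named members, the actin ratio kept 22, put 19 out of the threshold and turned 3: Mrpl10 in LPS blood (-0.15), Mrpl51 in LPS blood (-0.00217) and Mrps34 in TH blood (0.0231). Letter E alone put 19 of 31 out of the threshold, letter A alone 7 of 31, no quantile normalization 7 of 44, no filter 5, all groups of a tissue in 1 fit 4, every probe set on its own 2, title-number runs 2 of 31 and array weights 1. Letter A alone turned Mrps12 in TH blood (0.00585). No paired analysis was possible because the title numbers are unique to each array.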
